A study of Mus musculus with 6 samples.

Results

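The 6 genes followed here were Cxcl12, its receptors Cxcr4 and Ackr3, Ccl17 and its receptor Ccr4, and the alarmin Il33, out of 26251 gene symbols listed in at least 1 library. They were taken by symbol and had been chosen by their measured levels across cell types and genotypes in these libraries, so every value of theirs is a description and carries no p-value. Single cells of mouse gonads at E15.5 (embryonic day) had been captured by 10x Genomics in 2 libraries per group, each a biological replicate in which the gonads of an embryo were dissociated, frozen until genotyped, and thawed. The groups were control XY (fetal testis, Amh+/+; Inhbb+/+), dKO XY (fetal testis, Amh-/-; Inhbb-/-) and control XX (fetal ovary, Amh+/+; Inhbb+/+). The paper describes the dKO XY gonads at this age as ovotestes, with ovarian domains at their poles. They are called testes below after their labels. Amh and Inhbb encode anti-Müllerian hormone and the beta subunit of activin B, ligands of the TGF-beta family that Sertoli cells secrete. The deletions were present in every cell of the animal, so a change in 1 cell type cannot be assigned to loss of the ligands in that type.

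CXCL12 is a chemokine made by stromal cells. It signals through the G protein-coupled receptor CXCR4, while ACKR3 (CXCR7) binds it without G protein signalling and removes it from the surroundings, and the peptidase DPP4 cleaves its amino terminus and inactivates it. In the fetal gonad the CXCL12 and CXCR4 pair is known for guiding migrating primordial germ cells. CCL17 is a ligand of CCR4, a receptor best known on T cells, and is made by dendritic cells among others. IL33 is held in the nucleus of stromal and barrier cells and acts on cells that carry the receptor ST2 once released.

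The genes lie on GRCm38 at chr6:117168535-117181367 (Cxcl12, plus strand), chr1:128588199-128592293 (Cxcr4, minus), chr1:90203980-90216751 (Ackr3, plus), chr8:94810453-94812036 (Ccl17, plus), chr9:114490316-114504916 (Ccr4, minus) and chr19:29925114-29960718 (Il33, plus). All 6 are protein coding. The 250 bases before the RefSeq start (GRCm38.p6) of the ligands that were both lower in dKO XY testes are printed here, chr8:94810203-94810452 for Ccl17 and chr6:117168285-117168534 for Cxcl12, both read on the plus strand 5′ to 3′. Capitals mark matches on either strand to CAGAC, the core of the SMAD box through which TGF-beta family signals act on DNA. AACAAT, a SOX motif, and CAAGGTCA, an NR5A1 motif, were also searched on both strands, and no matches of different motifs overlapped.
Ccl17: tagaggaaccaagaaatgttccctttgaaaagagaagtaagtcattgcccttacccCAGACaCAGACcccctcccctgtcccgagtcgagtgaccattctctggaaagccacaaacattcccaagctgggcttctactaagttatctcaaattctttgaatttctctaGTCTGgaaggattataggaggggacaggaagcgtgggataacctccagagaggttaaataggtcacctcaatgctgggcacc
Cxcl12: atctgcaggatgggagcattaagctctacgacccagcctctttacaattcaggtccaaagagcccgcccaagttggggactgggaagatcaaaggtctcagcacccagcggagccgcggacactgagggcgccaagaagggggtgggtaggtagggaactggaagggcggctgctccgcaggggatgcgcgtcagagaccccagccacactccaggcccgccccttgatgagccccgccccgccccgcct
The Ccl17 window held 3 matches to CAGAC or its reverse complement and the Cxcl12 window held none. CAGAC stood in 42.2% of the 32851 promoter windows of this length, AACAAT in 9.42% and CAAGGTCA in 1.33%, so a match is common for the first and says nothing here about binding.

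After filtering, 39350 cells remained, 4781 to 8569 per library, with medians of 18415 to 27124 UMIs per cell. Unique molecular identifiers (UMIs) were added up by cell type, library by library, and a level is the gene's UMIs scaled to CPM, counts per 1000000 UMIs of that sum. They compare a gene across cells and libraries. CPM from 3' tags does not depend on transcript length. The p-values measure the spread between the 2 embryos of a group and no more. Clusters were named from fixed marker lists, so each name below means cells carrying those markers: 7 of 8 interstitial markers in the cluster with most interstitial cells, 5 of 6 Leydig, 6 of 6 germ, 7 of 7 endothelial, 7 of 7 pericyte, 7 of 7 coelomic epithelial and 8 of 8 immune markers, and 10 of 11 Sertoli and 7 of 8 granulosa markers in the pair of clusters grouped as supporting cells. The members and the related genes listed below had been left out of the clustering. The targeted genes followed the labels: in supporting cells Amh stood at 1989 and 1868 CPM in control XY against 17.9 and 15.4 in dKO XY, and Inhbb at 157 and 182 CPM against at most 49.2. In dKO XY libraries 24.4% and 28.3% of barcodes were removed for mitochondrial reads, against 2.22% to 9.35% elsewhere, and whether this loss touched the values below was not tested. Libraries shared 4 to 25 cell barcodes per pair, at most 0.307% of the smaller library.

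**Figure D1:**
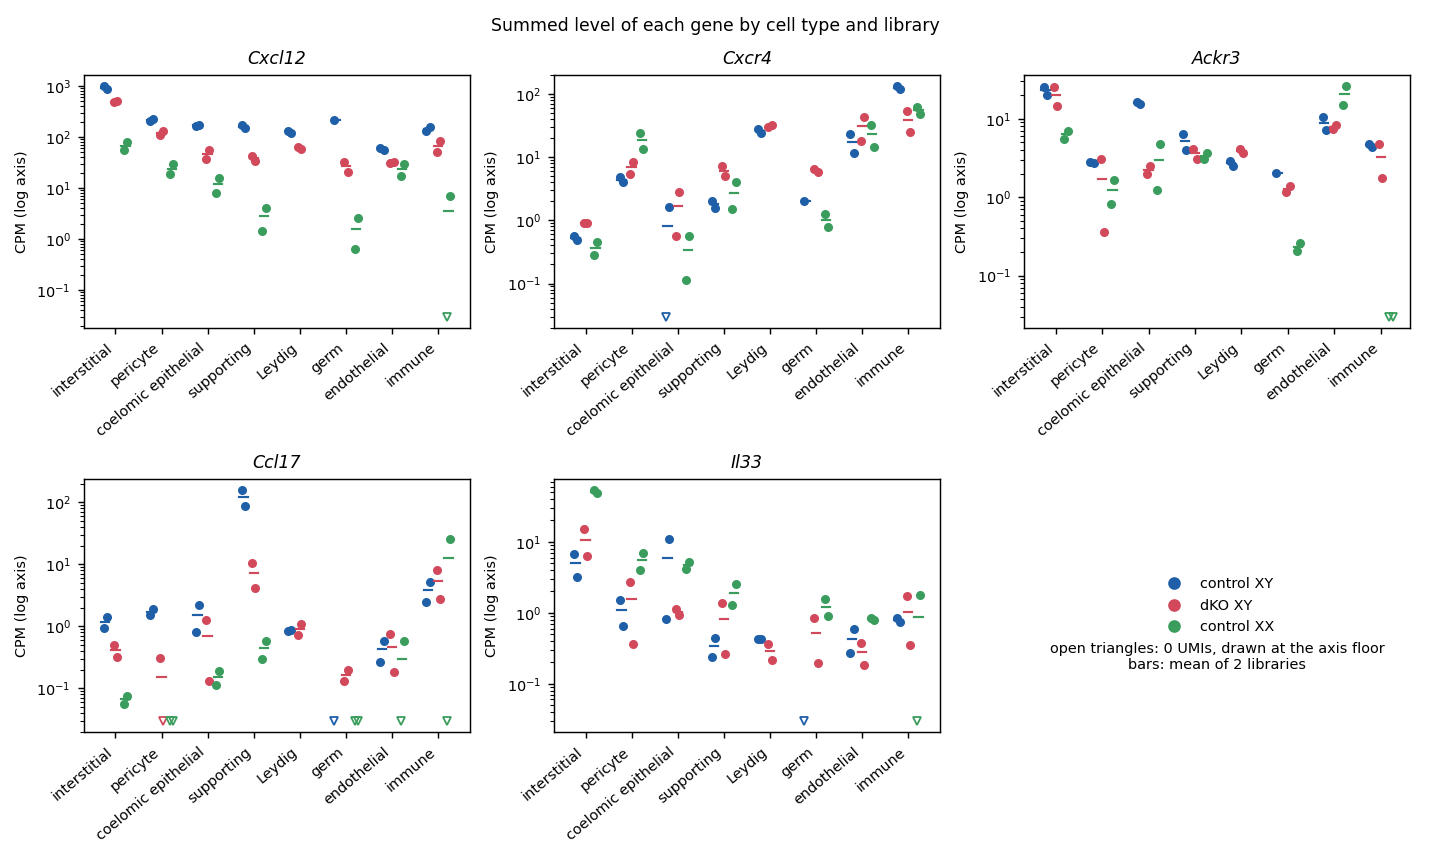
Level of each gene in CPM on a log axis (y) in the 8 cell types (x), with 1 point per library, bars at the mean of the libraries and open triangles for 0 UMIs. Sums of fewer than 10 cells are left out, so control XY germ cells have 1 library and control XX has no Leydig cells. Cxcl12 is highest in interstitial cells in each group, and Ccl17 stands at 88.8 to 156 CPM in control XY supporting cells.

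Cxcl12 was an interstitial transcript in each group, and its level stepped down from control XY to dKO XY to control XX. Interstitial cells held 1001 and 865 CPM in control XY testes, 480 and 505 in dKO XY testes, and 56.9 and 78.3 in control XX ovaries. The 3 groups did not overlap. The means were 933 ± 96.2 (SD, n = 2), 493 ± 17.9 and 67.6 ± 15.1 CPM, so dKO XY stood 1.89-fold and control XX 13.8-fold below control XY. The fitted log2 fold changes were -0.92 (SE 0.18) and -3.71 (SE 0.20). Other markers moved with the dKO XY level in the same cells: the 8 interstitial markers summed to 7298 and 6950 CPM in control XY against 5131 and 5245 in dKO XY, the erythroid markers to 12.8 and 23.8 against 146 and 144, and the germ cell markers to 4.46 and 4.31 against 27.5 and 35.7. Their part in the difference was not tested. Nearly every testicular interstitial cell held the transcript: 98.2% and 96.9% of cells in control XY testes, 91.5% and 93.4% in dKO XY testes and 32.9% and 35.3% in control XX ovaries had a UMI. With each cell thinned to 5000 UMIs the shares were 93.0% and 89.6%, 75.1% and 76.3%, and 15.9% and 19.5%.

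Other cells carried less Cxcl12. Pericytes, the contractile cells along vessels, came next with 202 and 230 CPM in control XY testes, 111 and 132 in dKO XY testes, and 18.7 and 29.0 in control XX ovaries. Pericytes did not overlap with interstitial cells in any group. The 15 germ cells of control XY replicate 1 stood at 212 CPM, within the range of the pericytes. In control XY, coelomic epithelial, supporting and immune cells followed at means of 171, 161 and 142 CPM, neighbours whose libraries overlapped. In control XX, pericytes and endothelial cells overlapped at means of 23.8 and 23.1 CPM. Free RNA in the droplets adds UMIs of an abundant transcript to cells that do not make it. The Leydig level of Cxcl12 was 11.3% to 13.6% of the interstitial level of the same library in the 4 XY libraries, and that of the Sertoli-marker cells described below was 2.49% to 4.10%. The interstitial collagen Col3a1 stood at 26.0% to 29.2% and 2.58% to 4.19% in the same cells, and Dcn, another interstitial gene, at 5.26% to 7.31% and 1.56% to 3.19%. How much of the level outside interstitial cells was free RNA was not tested.

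The lower level of Cxcl12 in dKO XY was seen in 2 of the 3 interstitial clusters. In the cluster led by Sostdc1, which does not cycle, it went from 1113 and 993 CPM to 510 and 562, a fitted log2 fold change of -0.97 (SE 0.09). In the cycling cluster it went from 913 and 793 CPM to 432 and 473, or -0.89 (SE 0.09). The groups did not overlap in either. The remaining cluster, led by Gdf10 and Lum, held 539 and 148 CPM in control XY, from 271 and 242 cells, and 520 and 472 CPM in dKO XY, from 653 and 313 cells. Here dKO XY lay within the range of control XY, and the fitted change was 0.51 (SE 0.42), in the other direction. Control XX held 57.0 and 78.3 CPM in this cluster, below each XY library, at -2.29 (SE 0.43) against control XY. The fits by cluster were added after the data had been seen.

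**Figure D2:**
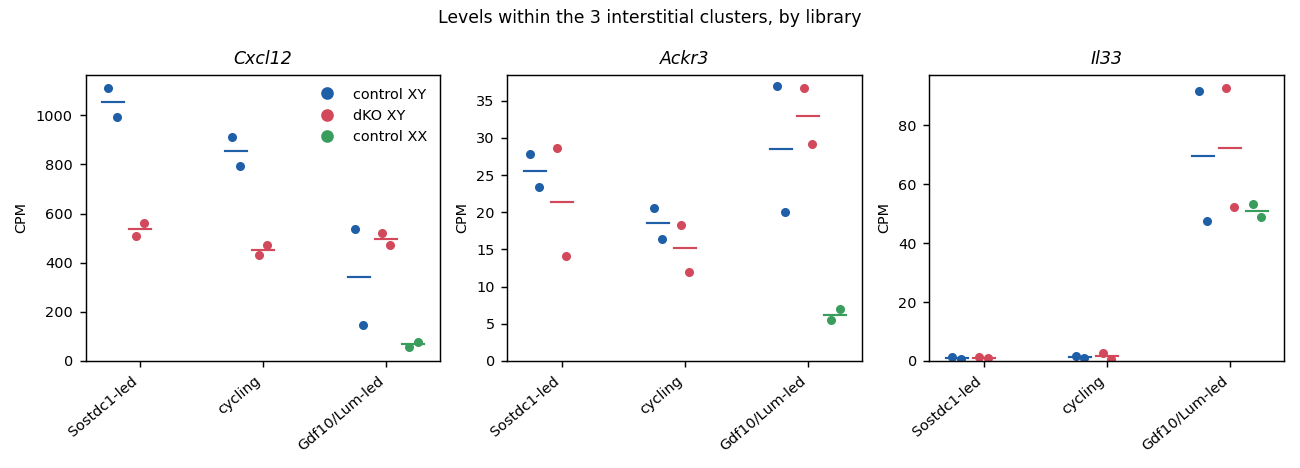
Level in CPM (y) of Cxcl12, Ackr3 and Il33 in the 3 interstitial clusters (x), 1 point per library and bars at the mean of 2 libraries. Control XX is drawn only in the Gdf10 and Lum cluster, since the others held fewer than 10 of its cells. Il33 stands between 47.4 and 92.6 CPM there and at or below 2.57 CPM in the other clusters.

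Among the interstitial clusters, Il33 marked the Gdf10 and Lum cluster in both XY groups. Control XX had too few cells in the other clusters to compare. In the Gdf10 and Lum cluster Il33 stood at 91.5 and 47.4 CPM in control XY testes and 92.6 and 52.1 in dKO XY testes. It stood at 53.3 and 48.7 CPM there in control XX ovaries. The groups overlapped, and the fitted changes against control XY were 0.05 (SE 0.29) for dKO XY and -0.40 (SE 0.29) for control XX. Over all interstitial cells the picture was another: 6.75 and 3.22 CPM in control XY testes, 15.0 and 6.41 in dKO XY testes, and 53.1 and 48.7 in control XX ovaries. Control XX stood 10.2-fold above control XY, at a log2 fold change of 3.42 (SE 0.44), and dKO XY overlapped with control XY, at 1.11 (SE 0.42). Of the interstitial cells behind these sums, the Gdf10 and Lum cluster gave 271 of 5222 and 242 of 6238 in control XY, 653 of 4600 and 313 of 2735 in dKO XY, and 1522 of 1528 and 2927 of 2932 in control XX. Of its cells, 44.0% to 63.8% had an Il33 UMI, against 0.877% to 1.06% of Leydig cells, a type not known for the gene. Thinned to 5000 UMIs, the shares were 18.2% to 30.3% and 0% to 0.236%. The coelomic epithelium of control XY held 20 Il33 UMIs in replicate 2, in 51 cells, beside 1 UMI, or 0.826 CPM, in replicate 1.

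Ackr3, the scavenging receptor, was highest in interstitial cells in both testis groups. Interstitial cells held 25.5 and 20.3 CPM in control XY and 25.6 and 14.7 in dKO XY, which overlapped, at a log2 fold change of -0.18 (SE 0.26). Control XX was lower than each XY library, at 5.59 and 7.01 CPM and a log2 fold change of -1.78 (SE 0.28). Within the Gdf10 and Lum cluster the difference was of like size, with 37.0 and 20.1 CPM in control XY testes, 36.7 and 29.2 in dKO XY testes and 5.47 and 7.02 in control XX ovaries, at -2.13 (SE 0.27). Endothelial cells showed another order, with 10.4 and 7.12 CPM in control XY testes, 7.45 and 8.38 in dKO XY testes and 15.0 and 26.1 in control XX ovaries, where they and not interstitial cells ranked highest. In the coelomic epithelium Ackr3 stood at 16.5 and 15.4 CPM in control XY, from 20 and 28 UMIs, against 1.98 and 2.52 in dKO XY testes and 1.24 and 4.79 in control XX ovaries. The control XY values there come from 32 and 51 cells. For these control XY cells, Dcn stood at 99.3% and 102% of the interstitial level of the same library, and Col3a1 at 96.8% and 99.0%. The dKO XY shares were lower, 48.7% and 55.1% for Dcn, 33.0% and 31.9% for Col3a1. Control XX ovaries had 40.6% and 94.8% for Dcn, 31.2% and 60.3% for Col3a1. The part of interstitial RNA in the Ackr3 difference was not tested.

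Ccl17 was highest in supporting cells of the control testis, and is described first in their Sertoli-marker cells. These were 2 subclusters of the supporting cells, with 10 of 11 and 11 of 11 Sertoli markers and 4 of 6 and 0 of 6 germ cell markers. In the first, Dppa5a, Dppa3, Dppa4 and Utf1, genes of germ cells, led beside the Sertoli gene Cst9, and the second was led by cell cycle genes. The 2 subclusters held 190 and 406 cells of control XY, 676 and 422 of dKO XY and none of control XX. Ccl17 stood there at 182 and 95.8 CPM in control XY testes, against 8.88 and 3.88 CPM in those of dKO XY. Each dKO XY library lay below each control XY library, with means of 139 and 6.38 CPM, a 21.8-fold difference and a log2 fold change of -4.47 (SE 0.37). The control XY libraries differed from each other by more than their counting error, since their exact Poisson intervals did not meet.

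The difference was present in each subcluster. In the one that was not cycling Ccl17 went from 220 and 142 CPM to 8.13 and 2.97. In the cycling one it went from 125 and 56.9 CPM to 10.1 and 5.52. The groups did not overlap in either. A Ccl17 UMI was found in 67.9% and 47.0% of control XY and in 11.5% and 9.0% of dKO XY Sertoli-marker cells, or 39.5% and 24.4% against 4.14% and 1.42% thinned to 5000 UMIs. Interstitial cells of the same libraries had a UMI in 1.93% and 2.81% in control XY and in 0.652% and 0.804% in dKO XY. Thinned, the dKO XY values were 0.130% and 0.183%. The dKO XY shares of Sertoli-marker cells lay above these, and the part of free RNA in them was not tested. Germ cell markers, all 6 summed, were at 92.7 and 25.6 CPM in control XY and 241 and 339 CPM in dKO XY Sertoli-marker cells. The 8 granulosa markers were at 31.7 and 35.2 against 163 and 201 CPM, and the 11 Sertoli markers at 5845 and 5271 against 8293 and 6526 CPM. The part of these markers in the Ccl17 difference was not tested.

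Ccl17 was close to absent from control XX supporting cells. All supporting cells together held 156 and 88.8 CPM in control XY testes, 10.4 and 4.19 in dKO XY testes and 0.301 and 0.591 in control XX ovaries, the last from 26 and 18 UMIs. In a supporting subcluster formed mostly of dKO XY cells, 468 and 486 of them, Ccl17 stood at 15.6 and 5.04 CPM, a level like that of the dKO XY Sertoli-marker cells. Measured against the other supporting subclusters, it passed for 5 of 6 Leydig, 7 of 8 interstitial, 1 of 8 granulosa and 0 of 11 Sertoli markers. In its dKO XY cells the Leydig markers summed to 454 and 431 CPM, against 21027 and 20768 in Leydig cells. The granulosa markers summed to 737 and 730 CPM, against 163 and 201 in Sertoli-marker cells, and the supporting lineage markers to 3231 and 3640 CPM. The marker rule put the Leydig class first, but the subcluster is given no cell type name here. It held 12 and 32 control XY cells, with 283 and 77.3 CPM, a range that takes in the control XY Sertoli-marker cells. In interstitial cells Ccl17 did not exceed 1.41 CPM in any library.

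Cxcl12, Ackr3 and Cxcr4 are described next in the Sertoli-marker cells. The share of all genes whose groups did not overlap there was not counted. Cxcl12 stood at 24.9 and 35.4 CPM in control XY and 14.9 and 14.8 in dKO XY, a log2 fold change of -1.08 (SE 0.18), beside the lower interstitial level in the same libraries, and in the cycling subcluster alone its groups overlapped. Ackr3 stood at 0.332 and 1.40 CPM, on 2 and 17 UMIs, against 1.89 and 1.51 CPM, on 40 and 26. Cxcr4 went the other way, from 1.82 and 1.57 CPM, on 11 and 19 UMIs, to 9.55 and 7.82 CPM, on 202 and 135 UMIs. No library overlapped, the means of 1.70 and 8.68 CPM lay 5.12-fold apart, and the log2 fold change was 2.34 (SE 0.29). A Cxcr4 UMI was found in 5.26% and 4.43% of cells in control XY, against 21.6% and 23.2% in dKO XY. Thinned to 5000 UMIs the shares were 0.526% and 0.985% against 4.44% and 4.74%. Interstitial cells of the same libraries, thinned alike, had 0.326% and 0.192% against 0.565% and 0.585%. Germ cell and granulosa markers were higher in the same dKO XY cells, as given above, and their part in the difference was not tested. Germ cells of dKO XY themselves held 6.55 and 5.77 CPM of Cxcr4.

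In the sum of all supporting cells, Cxcl12 appeared at 170 and 151 CPM in control XY, but 1202 of 1428 and 1767 of 2429 of these UMIs came from 61 and 106 cells that also carried Tcf21 or Sycp3, markers of interstitial and germ cells, at 647 and 558 CPM. Those cells had been kept out of the subclusters, so the Sertoli-marker values do not hold them. The fitted change over all supporting cells, -2.04 (SE 0.31), therefore mixes both. For Ccl17 the same cells held only 95 of 1311 and 207 of 1428 UMIs.

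**Figure D3:**
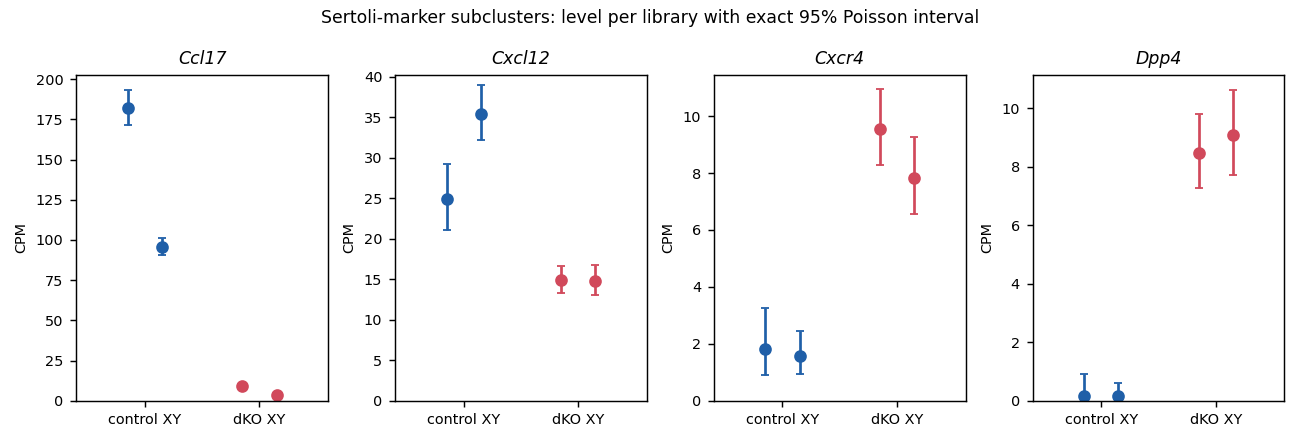
Level in CPM (y) of Ccl17, Cxcl12, Cxcr4 and Dpp4 in the Sertoli-marker subclusters of control XY and dKO XY (x), 1 point per library with its exact Poisson interval at 95%, which covers counting error only. No gene's groups overlap, with Ccl17 and Cxcl12 lower and Cxcr4 and Dpp4 higher in dKO XY.

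Of the 6 members, 4 passed the low count filter in Sertoli-marker cells and 3 were called at an adjusted p under 0.05 by edgeR's quasi-likelihood test with Benjamini-Hochberg adjustment, where 14.7% of 13727 genes were called. The rule had used these contrasts, and nothing is read from the count. Over all supporting cells 5 passed and 3 were called, against 15.9% of 16031 genes. The count was 2 without control XY replicate 1, control XY replicate 2 or dKO XY replicate 1. With all libraries 3 were also called for control XX against control XY, where 48.6% were called, and for dKO XY against control XX, where 40.6% were.

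A list of 76 related genes, of which some hold the rest of the CXCL12 pathway, was tested in the same fits. Dpp4, the peptidase that inactivates CXCL12, rose most. In Sertoli-marker cells it had 1 and 2 UMIs in control XY, 0.166 and 0.165 CPM, and 179 and 157 UMIs in dKO XY, 8.46 and 9.09 CPM. The log2 fold change was 5.62 (SE 0.43, edgeR adjusted p = 1.79e-05). With 3 UMIs in control XY the ratio of 52.9 has an exact counting interval of 18.0 to 258. Dpp4 in germ cells was at 0.389 and 0.596 CPM in dKO XY. The part of the germ cell and granulosa markers given above in the Dpp4 difference was not tested. In all supporting cells it was at 6.13 and 5.93 CPM in dKO XY and at 1.21 and 0.657 in control XX, and dKO XY exceeded control XX by a log2 fold change of 2.66 (SE 0.31, edgeR adjusted p = 0.000107).

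Of the 23 list genes that passed the filter in Sertoli-marker cells, 3 rose and 2 fell in dKO XY, or 21.7% against 14.7% of all genes. The median log2 fold change of the list was 0.02, against -0.01 over all genes. The germ cell and granulosa markers given above were higher in the same dKO XY sums. Their part in the list changes was not tested. Beside Dpp4, Gnai1, an inhibitory G protein alpha subunit, rose from 7.13 and 7.25 to 17.0 and 17.1 CPM (edgeR adjusted p = 0.00143). Ccl20, the ligand of CCR6, rose by a log2 fold change of 3.57 (SE 0.83, edgeR adjusted p = 0.0144) on 2 UMIs in control XY against 54 in dKO XY, a ratio of 12.8 with an exact interval of 3.37 to 108. Cd74, the MHC class II invariant chain and a receptor of the cytokine MIF, fell from 7.80 and 6.92 to 2.41 and 1.74 CPM (edgeR adjusted p = 0.00153). Cx3cl1, the membrane-bound ligand of CX3CR1, fell from 27.7 and 35.5 to 18.0 and 17.3 CPM (edgeR adjusted p = 0.00343). Ccl20 lost its call without control XY replicate 2, without dKO XY replicate 2 and by DESeq2, and Cx3cl1 without control XY replicate 2.

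Over all supporting cells 8 of 39 list genes passed the test in dKO XY against control XY, 5 higher and 3 lower, or 20.5% against 15.9% of all genes, with a median of 0.10 against 0.01. In the same sums the 8 granulosa markers stood at 68.8 and 48.1 CPM in control XY against 430 and 492 in dKO XY and the germ cell markers at 69.2 and 21.3 against 152 and 211, and their part in the list changes was not tested. Cxcl10, an interferon-induced ligand of CXCR3, rose from 0.714 and 2.80 to 13.8 and 9.14 CPM, a log2 fold change of 2.55 (SE 0.52, edgeR adjusted p = 0.00878). In dKO XY it stood at 29.9 and 17.8 CPM in the unnamed dKO-rich subcluster. It stood at 5.25 and 1.68 CPM in the Sertoli-marker cells, where it was not called. Its level in the other supporting subclusters was not taken, and immune cells of dKO XY held 20.5 to 27.1 CPM. Ccrl2, which binds chemerin, rose from 0.476 and 0.622 to 2.36 and 1.92 CPM (edgeR adjusted p = 0.00723). Cxcl16, a membrane-bound ligand of CXCR6, fell from 5.00 and 5.54 to 1.09 and 0.673 CPM (edgeR adjusted p = 0.0141). Of its 131 UMIs in control XY supporting cells 25 lay in Sertoli-marker cells, the 8 interstitial markers in the same sums were at 1040 and 1163 CPM against 591 and 564, and their part in the difference was not tested. Ccl20, Dpp4 and Gnai1 rose and Cd74 and Cx3cl1 fell as in the Sertoli-marker cells. Dpp4, Cxcl10, Cd74 and Cx3cl1 kept their call without any 1 library. Ccrl2 lost it without control XY replicate 2, Cxcl16 without control XY replicate 2 or dKO XY replicate 2, Ccl20 without dKO XY replicate 2 or either control XY library, and Gnai1 without any 1 library of either XY group. DESeq2 and the fit with a replicate block each called 4 list genes higher and 3 lower.

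Against control XY, control XX supporting cells had 12 list genes higher and 6 lower of 39, or 46.2% against 48.6% of all genes. The 4 largest rises were Ackr4, the scavenger of CCL19 and CCL21, at a log2 fold change of 3.51 (SE 0.29), Dpp4 at 2.22 (SE 0.58), the neutrophil chemokine Cxcl1 at 1.75 (SE 0.50) and Cxcl10 at 1.72 (SE 0.53). The 4 largest falls were Cxcl16 at -2.64 (SE 0.58), the platelet chemokine Pf4 at -2.60 (SE 0.77), the monocyte chemokine Ccl2 at -2.22 (SE 0.62) and Cd74 at -1.89 (SE 0.25). The edgeR adjusted p was 6.86e-06 for Ackr4, 0.00992 for Dpp4, 0.0157 for Cxcl1, 0.0215 for Cxcl10, 0.00399 for Cxcl16, 0.0187 for Pf4, 0.0138 for Ccl2 and 0.000188 for Cd74. In these sums the 8 immune markers stood at 5.12 and 6.41 CPM in control XY against 1.93 and 1.84 in control XX, and the interstitial markers at 1040 and 1163 against 452 and 667, and their part was not tested. Dpp4 and Ccl2 lost their call without control XX replicate 1, as did Cxcl1 and Pf4. Cxcl1 and Cxcl10 also lost it without control XY replicate 1, Ccl2 and Pf4 without control XY replicate 2, and Cxcl10 without control XX replicate 2. Between dKO XY and control XX, 16 of 39 list genes differed, 8 in each direction, or 41.0% against 40.6% of all genes. The largest rises in dKO XY were Ccl20 at 4.83 (SE 0.76), Ccl2 at 3.64 (SE 0.47), Dpp4 as given above and Pf4 at 2.13 (SE 0.68). That of Ccl20 rests on 64 UMIs in dKO XY and 3 in control XX. The largest falls were Ackr4 at -2.48 (SE 0.22), the receptor kinase gene Adrbk2 at -1.48 (SE 0.22), Cxcl1 at -1.24 (SE 0.42) and the IL33 pathway adaptor Myd88 at -1.11 (SE 0.17). The edgeR adjusted p was 0.000781 for Ccl20, 0.000214 for Ccl2, 0.0306 for Pf4, 2.07e-05 for Ackr4, 0.000488 for Adrbk2, 0.0384 for Cxcl1 and 0.000566 for Myd88. The immune markers in dKO XY, at 8.26 and 4.71 CPM, were above those of control XX as well, and their part was not tested. Pf4 lost its call without control XX replicate 1 or either dKO XY library, and Cxcl1 without control XX replicate 1 or dKO XY replicate 2.

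**Figure D4:**
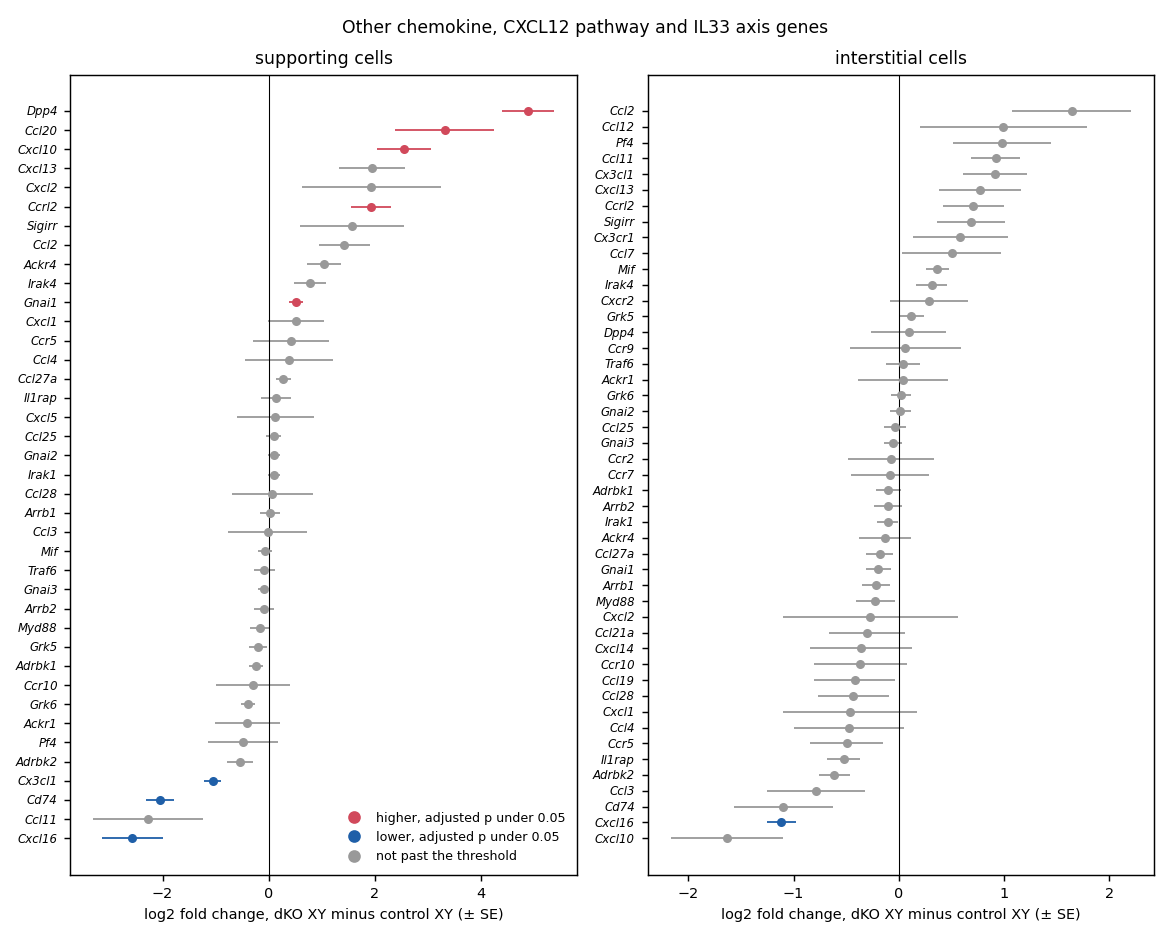
Fitted log2 fold change of dKO XY over control XY (x, with its SE) for the 39 list genes tested in supporting cells and the 47 tested in interstitial cells (y), coloured by edgeR adjusted p under 0.05. In supporting cells 5 genes are higher, led by Dpp4, and 3 lower, while in interstitial cells only Cxcl16 passed.

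In interstitial cells 1 of 47 list genes passed the test in dKO XY, or 2.13% against 5.83% of all genes, and the list median was -0.08 against -0.01. Cxcl16 fell from 23.9 and 21.3 to 11.2 and 9.66 CPM, a log2 fold change of -1.12 (SE 0.14, edgeR adjusted p = 0.0058). In the Gdf10 and Lum cluster alone it stood at -0.08 (SE 0.26), and like Cxcl12 it went down in the other clusters, by -1.15 and -1.13 (edgeR adjusted p = 0.00589 and 0.00615). Of the members, 5 passed the filter and 2 were called, against those 5.83%, but 0 were when either control XY library was left out, and 1 without any other single library. In control XX against control XY 4 of 5 were, against 25.1%. For control XX against control XY, 13 of 47 list genes differed, 3 higher and 10 lower, or 27.7%. The 3 rises were Dpp4 at 2.45 (SE 0.33, edgeR adjusted p = 0.00108), Ackr4 at 2.37 (SE 0.25, edgeR adjusted p = 0.000295) and Mif at 0.59 (SE 0.11, edgeR adjusted p = 0.00569). Of the 4 largest falls, those of Ccr2, Ccl21a and Ccl3 were at levels under 1 CPM, and the 8 immune markers in the same sums stood at 7.03 and 5.05 CPM in control XY against 2.35 and 2.55 in control XX, whose part was not tested. Ccr2, a monocyte receptor, was at 0.122 and 0.131 CPM in control XY with no UMI in control XX (edgeR adjusted p = 0.00837). Ccl21a fell by 3.86 (SE 0.65, edgeR adjusted p = 0.0035) from 0.316 and 0.331 CPM, Ccl3 fell by 3.71 (SE 0.77, edgeR adjusted p = 0.0093), and Gnai1 fell by 1.87 (SE 0.12, edgeR adjusted p = 2.61e-05) from 66.6 and 65.2 to 18.3 and 16.2 CPM. Without control XX replicate 2 Ccr2 and Ccl21a lost their call, and without control XY replicate 1 Mif did. In the Gdf10 and Lum cluster alone Dpp4 stood at -0.71 (SE 0.46) and Gnai1 at -0.16 (SE 0.19), neither called, while Ackr4 kept its rise at 1.52 (SE 0.24, edgeR adjusted p = 0.00161).

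Cxcr4 had 3 main sites in the testis, immune, Leydig and endothelial cells. Immune cells, which in these libraries carried Lyz2, S100a8 and the complement genes C1qa and C1qb, held 134 and 118 CPM in control XY testes, 53.1 and 24.6 in dKO XY testes and 62.2 and 48.3 in control XX ovaries. Each dKO XY library lay below each control XY library, 3.23-fold in the means, with a log2 fold change of -1.70 (SE 0.34). The share of immune cells with a UMI was 66.7% and 65.8% in control XY testes, 49.7% and 39.2% in dKO XY testes and 44.8% and 32.7% in control XX ovaries. Thinned to 5000 UMIs it was 35.4% and 44.7%, 23.0% and 12.7%, and 27.6% and 17.3%. In immune cells 4 of 6 members passed the filter and none was called by edgeR, where 0.00885% of 11298 genes, 1 in all, was called. By DESeq2 1 was, against 41 of 11298 genes, and by edgeR without high doublet scores 1 was, against 111 of 10723. With no filter on low counts 2 were, against 450 of 18535.

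The make-up of the immune cells moved with this difference. Cells were split at 1000 CPM of C1qa and C1qb together, a limit set after the data had been seen, with 29 of the 624 immune cells within 2-fold of it. The C1q-low cells were 72.2% and 57.9% of immune cells in control XY testes, 50.8% and 34.3% in dKO XY testes and 27.6% and 38.5% in control XX ovaries. Their median of Lyz2 was 8225 CPM in control XY and 6375 in dKO XY but 50.6 in control XX, from 28 cells. Their Cxcr4 stood at 176 and 167 CPM in control XY testes, 63.2 and 36.1 in dKO XY testes and 80.8 and 93.9 in control XX ovaries. C1q-high cells, macrophage-marker cells, held 35.8 and 48.1, 42.1 and 17.7, and 55.4 and 21.0 CPM, and their groups overlapped. Within the C1q-low cells dKO XY thus lay below control XY without overlap, and the part of the cells' changing share and type in the immune level was not tested. Their median of S100a8 was 145 CPM in control XY and 0 in dKO XY, with a UMI in 61.8% and 46.9% of cells, and in control XX it was 0, with a UMI in 39.3%. The 6 T and NK cell markers summed to 85.2 and 69.2 CPM in control XY immune cells, 57.0 and 38.2 in those of dKO XY and 8.68 and 48.3 in those of control XX. In interstitial cells the same sum was 57.4 and 55.4 CPM for control XY and 69.2 and 65.9 CPM for dKO XY, so it does not measure T or NK cells, and Cd3e had no UMI in the immune cells of dKO XY or control XX.

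**Figure D5:**
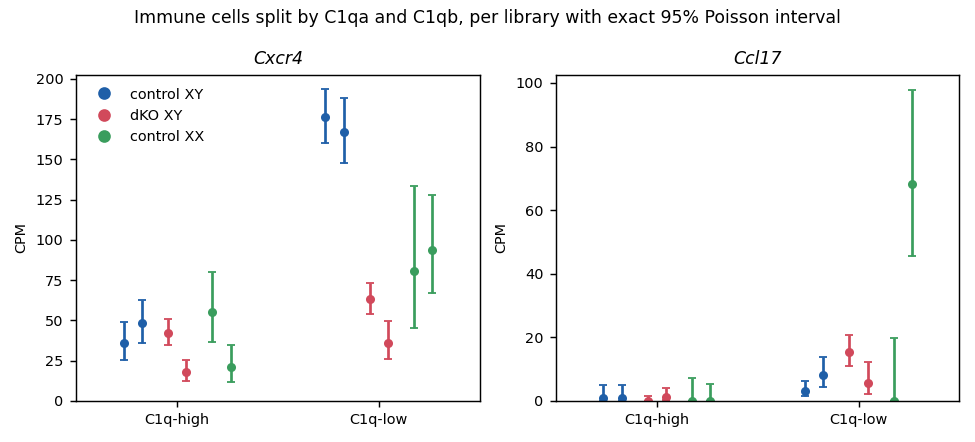
Level in CPM (y) of Cxcr4 and Ccl17 in immune cells with high or low C1qa and C1qb (x), 1 point per library with its exact Poisson interval at 95%. In C1q-low cells Cxcr4 stands at 167 and 176 CPM in control XY, against 36.1 and 63.2 in dKO XY, and Ccl17 reaches 68.1 CPM in control XX replicate 2 alone.

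In Leydig cells, the androgen-producing cells of the testis, Cxcr4 stood at 27.8 and 23.8 CPM in control XY and 30.3 and 32.2 in dKO XY. The dKO XY libraries lay above, by 1.21-fold and a log2 fold change of 0.24 (SE 0.10). A UMI was found in 38.8% to 45.3% of Leydig cells, 9.11% to 11.3% thinned. The 8 immune markers together reached 5.46 to 14.7 CPM in these cells, and the part of immune cell RNA in the Cxcr4 level was not tested. Cxcl12 stood at 134 and 118 against 63.7 and 57.2 CPM, a log2 fold change of -1.09 (SE 0.11), beside the lower interstitial level of the same libraries. Of the members, 5 passed the filter and 1 was called, against 9.65% of 14758 genes. Of 32 list genes 2 rose and 1 fell, or 9.38%, with a median of -0.17 against -0.01. Cx3cl1 rose by 1.40 (SE 0.33, edgeR adjusted p = 0.0369), Mif by 0.37 (SE 0.08, edgeR adjusted p = 0.0327), and Cxcl1 fell by 2.73 (SE 0.62, edgeR adjusted p = 0.0335). In the same sums the 7 supporting lineage markers stood at 233 and 249 CPM in control XY against 433 and 528 in dKO XY, the Sertoli markers at 80.6 and 135 against 184 and 189, the germ cell markers at 5.17 and 5.80 against 22.5 and 31.8, and the Leydig markers at 31202 and 29886 against 21027 and 20768, and their part in these changes was not tested. Each lost its call without 1 or another library: Cx3cl1 without control XY replicate 1 or dKO XY replicate 2, Mif without either control XY library, and Cxcl1 without dKO XY replicate 2. With high doublet scores left out, 2 list genes were called higher and 0 lower. With all variable genes for clustering, 1 was called higher and 1 lower.

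Endothelial cells held Cxcr4 at 23.0 and 11.5 CPM in control XY testes, 18.2 and 43.0 in dKO XY testes and 31.8 and 14.5 in control XX ovaries, which overlapped. Pericytes held 4.78 and 4.03 CPM in control XY testes, 5.34 and 8.41 in dKO XY testes and 24.3 and 13.7 in control XX ovaries. Control XX pericytes lay above every XY library on 30 and 41 UMIs, from 53 and 128 cells. In endothelial cells 3 members passed the filter and none was called by edgeR, against 0.542% of 11984 genes. With only the 2 groups compared 1 was, against 102 of 11780 genes, and with no filter 2 were, against 364 of 19205. No list gene of 27 was called there by edgeR or by DESeq2, and the list median was -0.05 against 0.00. At an unadjusted edgeR p under 0.05 were 3 of the 27, against 1039 of all 11984 genes. In immune cells no list gene of 45 was called by edgeR and 1 was by DESeq2, and the list median was -0.16 against 0.00. At an unadjusted edgeR p under 0.05 were 7 of the 45, against 844 of all 11298 genes. Cd74 in immune cells had values of 940 and 520 CPM in control XY and 173 and 64.5 in dKO XY, and did not pass (edgeR adjusted p = 0.281).

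Germ cells, the classical CXCR4 cells of the early gonad, were few in control XY, 15 and 7 cells, and were compared between dKO XY and control XX. Cxcr4 stood at 6.55 and 5.77 CPM in 412 and 277 dKO XY germ cells and at 1.24 and 0.771 CPM in 258 and 227 control XX germ cells, the last on 12 and 6 UMIs. The groups did not overlap, and the log2 fold change was 2.65 (SE 0.41). Cxcl12 stood at 32.2 and 21.0 against 0.621 and 2.57 CPM, which lay 16.7-fold apart in the means, while the interstitial levels of the same groups lay far apart too. Of the members, 3 passed the filter and all 3 were called, against 52.0% of 13585 genes, and 2 were by DESeq2, without control XX replicate 1 or with 1 dKO XY library left out. Those 3 members, Cxcl12, Cxcr4 and Ackr3, had 708, 159 and 32 UMIs in dKO XY germ cells, against 26, 18 and 4 in control XX. The members had been chosen by their levels, and nothing is read from this count or from those of other cell types. Of 19 list genes 8 rose and 4 fell, or 63.2%, with a median of 0.22 against 0.02. In the same sums the Leydig markers stood at 372 and 213 CPM in dKO XY against 7.55 and 7.45 in control XX, the Sertoli markers at 151 and 197 against 48.5 and 38.2, and the granulosa markers at 48.9 and 68.8 against 138 and 140, and their part was not tested. The 4 largest rises were Mif, a CXCR4 ligand, from 555 and 354 to 1325 and 1190 CPM (edgeR adjusted p = 2.54e-08), the receptor kinase Grk6 at 1.46 (SE 0.26, edgeR adjusted p = 1.14e-05), Cx3cl1 at 1.34 (SE 0.53, edgeR adjusted p = 0.0328) and Il1rap, the co-receptor of IL33, at 1.29 (SE 0.52, edgeR adjusted p = 0.0367). The falls were Myd88 at -1.28 (SE 0.41, edgeR adjusted p = 0.00923), Grk5 at -1.08 (SE 0.24, edgeR adjusted p = 0.000367), Ccl25 at -0.79 (SE 0.20, edgeR adjusted p = 0.00132) and Gnai3 at -0.76 (SE 0.18, edgeR adjusted p = 0.000478). Cx3cl1, Il1rap and Myd88 lost their call without either dKO XY library, Cx3cl1 also without control XX replicate 2, Il1rap without control XX replicate 1, and Ccl25 without control XX replicate 2. By DESeq2, Cx3cl1, Il1rap and Myd88 were not called.

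Ccl17 had a lesser site in immune cells. It stood there at 2.51 and 5.13 CPM in control XY testes, 8.03 and 2.77 in dKO XY testes, and 25.5 CPM in control XX replicate 2, on 29 UMIs, with no UMI in replicate 1, where 3 UMIs among the 29 immune cells would have been 4.34 CPM. The groups overlapped. All 29 of those UMIs fell in C1q-low cells, at 68.1 CPM, and they came from 8 cells. Its receptor Ccr4 was scarcely detected: 8 UMIs in 39350 cells, 0.00744 CPM (exact Poisson interval 0.00321 to 0.0147), with none in immune cells and no listing in control XX replicate 2. Whether Ccr4 was made below this depth could not be told.

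Over the 45 sums of a library and cell type with at least 10 cells, the genes with the pattern most like each member were found by Pearson's r of log2(CPM + 1), as a description over sums that share libraries. They were Adamts5 (r = 0.93), Efna5 (0.91) and Pdlim3 (0.91) for Cxcl12, and Ptpn1 (0.85), Cd36 (0.83) and Mbd2 (0.81) for Cxcr4. For Ackr3 they were Ly6h (0.84), Igfbp3 (0.79) and Tspan9 (0.78), for Ccl17 Ctsl (0.84), Mybpc3 (0.80) and Dynlt1a (0.79), and for Il33 Pcdh11x (0.79), Pdgfrl (0.78) and Syt1 (0.78). For Ccr4 no r exceeded 0.49, on 8 UMIs.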

How the data were processed

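Gonad cells of 6 libraries, 2 per group, were captured with the 10x Genomics system and sequenced on an Illumina NovaSeq. According to the study's methods the authors aligned reads with Cell Ranger, corrected swapped barcodes and used Seurat; the labels' processing notes name mm10. The deposited matrices hold UMI counts per gene and cell, not normalized. Barcodes had to hold above 2500 and below 9000 genes, with at most 25% mitochondrial and 20% Hbb counts, and were clustered in Seurat 5.3.0 (R 4.3.3) with 3000 variable genes, 20 dimensions and resolution 0.21 (supporting cells 8 and 0.25), leaving out members and list genes. No doublets were removed in the values reported; an alternative drops, by Scrublet score, the top 8% of each library. Counts were summed per library and cell type (at least 10 cells) and tested by edgeR 4.0.16 quasi-likelihood with TMM scaling and a low count filter, with Benjamini-Hochberg adjustment over all genes. The tests were first run on simulated data. Named genes were the 6 members, the 3 genes most like each in pattern (mean of at least 5 CPM), and per comparison each list gene past an adjusted p of 0.05, or, where over 8 passed, the 4 largest rises and 4 largest falls. The members and lists were chosen with earlier results of these data known. Replicate numbers only name samples and did not pair them. Alternatives were DESeq2 1.42.0, RLE scaling, no filter, a replicate block, only the groups compared, each library left out, no high doublet scores, all variable genes for clustering and, chosen after seeing the data, single interstitial clusters and a crossed block. Intervals are exact Poisson intervals at 95% and cover counting error only. Thinning drew 5000 UMIs per cell.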

Additional observations from a re-analysis of the deposited data

Results flagged for a closer look

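Cxcr4 and Ackr3 were flagged because every dKO XY library lay above both control XY libraries in some cell types and below both in others. The share of all genes that would meet this rule was not counted, so the pattern may be common. These differences between cell types were not tested. For Cxcr4 the ratio of the dKO XY to the control XY mean CPM was 1.70 in interstitial cells, 1.21 in Leydig cells, 1.56 in pericytes and 5.12 in Sertoli-marker cells, against 0.309 in immune cells. The interstitial values rest on levels under 1 CPM. For Ackr3 the ratio was 1.42 in Leydig cells and 1.96 in Sertoli-marker cells, against 0.141 in coelomic epithelial cells, where control XY gave 32 and 51 cells. Relative to interstitial cells, Col3a1 and Dcn were lower in dKO XY coelomic epithelial cells too, as given above beside Ackr3, and their part was not tested. The Sertoli-marker value rests on 2 and 17 UMIs in control XY, and its log2 fold change ran from 0.24 to 2.27 over the alternatives.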

How the results depend on the processing

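Counts of called genes moved with several alternatives, and the cause was not tested. In interstitial cells of dKO XY against control XY, 978 genes were called by edgeR, 1634 in the Sostdc1 cluster alone, 0 in the Gdf10 and Lum cluster alone, 1674 with no filter on low counts. List genes called there went from 1 to 2 with all variable genes, with only the 2 groups compared and with RLE scaling, to 3 in the Sostdc1 or the cycling cluster alone, to 5 by DESeq2, to 6 with no filter and to 0 in the Gdf10 and Lum cluster alone, where Cxcl12 turned to 0.51. For control XX against control XY that cluster gave 1602 genes and 5 list genes, and Il33 turned to -0.40, Cxcl16 to 0.25 and Dpp4 to -0.71. With no filter, Leydig cells gave 2682 genes and 7 list genes, endothelial cells 364 and 1, and immune cells 450 and 8. With only the 2 groups compared, endothelial cells gave 102 genes, and immune cells 21 genes and 1 list gene. Interstitial cells of dKO XY then had 1 member called, against 1068 of 16729 genes. In immune cells DESeq2 called 41 genes and 1 list gene, and leaving out high doublet scores gave 111 genes and 2 list genes. The immune level of Cxcr4 went to 67.2 CPM in control XX and 138 in control XY without high doublet scores, and to 35.4 in control XX with all variable genes.

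Leaving out 1 library gave 1147 to 2665 genes and 4 to 9 list genes in supporting cells of dKO XY against control XY, 5501 to 7798 and 12 to 22 for control XX against control XY, and 5155 to 6500 and 11 to 19 for dKO XY against control XX. It gave 1169 to 2223 and 4 to 7 in Sertoli-marker cells, 267 to 1060 and 1 to 3 in interstitial cells of dKO XY, 2582 to 4419 and 10 to 15 of control XX, 1185 to 2075 and 2 to 5 in Leydig cells, 19 to 100 and 0 to 1 in endothelial cells, 0 to 25 and 0 to 1 in immune cells, and 5022 to 6495 and 9 to 16 in germ cells. The number of members called moved too in the comparisons of supporting cells with control XX. The members had been chosen by their levels, and nothing is read from those counts. A group left with 1 library was assumed to vary like the others.

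With a replicate block, interstitial cells of dKO XY gave 631 genes, 2 list genes and 1 member, Leydig cells 2868 and 7, and immune cells 3 genes. Deviations of libraries with the same number correlated between -0.164 and 0.135, so the numbers were not taken as a pairing. In germ cells the crossed block gave 7779 genes and 12 list genes, the block 6409 and 10, and no block 7063 and 12.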
